A study of Fragaria x ananassa with 21 samples.

Results

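The degradome table of this strawberry study lists 5207 predicted pairings between a small RNA and an assembled transcript, and 859 of them had at least 1 sequenced end at the predicted cut in at least 1 of the 7 degradome libraries. The sites described here are the 407 read pairings whose small RNA carries a miRBase-type name, such as miR482 or miR393. The remaining 452 read pairings belong to sequences that the authors predicted themselves and labelled PC-. The members were selected on these raw reads, so numbers of reads per site are given as a description with no test. Lines that name the same transcript and the same position share the same reads, and the 407 pairings come down to 321 unique cuts on 296 unigenes of 192 Trinity components, a component being the group of assembled isoforms closest to a gene. In all, 65 miRNA names of 27 families had a read site, and no cut was claimed by more than 1 family. For comparison, the PC- pairings gave 412 unique cuts on 266 components, after 12 cuts claimed by both kinds of miRNA were counted with the named ones.

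Receptacles, the fleshy part of the fruit without the achenes, came from octaploid strawberry (Fragaria x ananassa, cultivar Toyonoka) whose fruit had been injected with 100 μL of water (CK), 1 μM abscisic acid (ABA) or 100 μM nordihydroguaiaretic acid (NDGA, which blocks ABA synthesis), and were sampled on day 0, 5 or 8. Each library carries the name of its treatment and day, with CK on all 3 days and ABA and NDGA on days 5 and 8. Every library was made once from pooled RNA, so fruit-to-fruit spread was not measured and conditions are compared without p-values. From the deposited scaling the degradome libraries held 13787038 (NDGA8) to 40989117 (CK0) reads, and a cut with 3 reads stood for 0.0732 RPM (raw reads per 1000000 library reads) in CK0 and for 0.218 RPM in NDGA8. The tissue label could not be checked, because the files name few unigenes: of the marker words for seed and receptacle, only polygalacturonase occurred, on 3 unigenes with at most 1.49 RPKM.

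In plants a miRNA guides an ARGONAUTE protein to a transcript with near-complete pairing, and the protein cuts the transcript opposite the middle of the miRNA. The downstream piece keeps a free 5′ end, and degradome sequencing counts such ends at single-base resolution. A pile of reads at the predicted base is therefore the usual evidence that a transcript is a target, whereas single reads also arise from ordinary decay. Most conserved plant families are known for 1 class of target: miR156 for SPL transcription factors, miR160 and miR167 for auxin response factors, miR164 for NAC factors, miR393 for the TIR1/AFB auxin receptors, miR482 and miR5213 for NBS-LRR disease resistance proteins, and miR828 for MYB factors.

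The mature sequences behind the most read sites, and behind the names with most targets, are printed as the degradome table gives them, with bases 2 to 8 (the seed) in capitals. They are shown because the isoforms of 1 family differ in length or start, and this decides which base is called as the cut.
vvi-miR482_2ss10CT20TC: tCTTTCCTattcctcccatccc
mtr-miR393a_R+1_1ss21CT: tCCAAAGGgatcgcattgattt
mtr-miR393a: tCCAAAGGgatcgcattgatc
mtr-miR160a: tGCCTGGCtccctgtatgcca
mdm-miR160a_R+1: tGCCTGGCtccctgtatgccac
mdm-miR2111a_R-1: tAATCTGCatcctgaggttt
mtr-miR172b: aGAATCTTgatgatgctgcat
lus-miR172j_R-3_1ss12AC: gCAGCATCatccagattc
mtr-miR172c-5p_2ss2TC12AC: gCAGCATCatccagattcaca
mtr-miR164a_R-2: tGGAGAAGcagggcacgtg
mtr-miR164a: tGGAGAAGcagggcacgtgca
gma-miR828a: tCTTGCTCaaatgagtattcca
mtr-miR396a-5p: tTCCACAGctttcttgaactt
mtr-miR396b-5p: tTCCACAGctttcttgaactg
mtr-miR319a-3p_1ss20CT: tTGGACTGaagggagctcct
mdm-miR166a: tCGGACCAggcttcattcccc
gma-miR156a_L+1: tTGACAGAagagagtgagcac
mtr-miR156b-5p_R+1: tGACAGAAgagagtgagcaca
osa-MIR156j-p5: tGTTGACAgaagagagtgagc

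The 65 names had 49 different seeds, and 42 of them were 21 bases long. Both miR393 names shared a seed, as did both miR160 names that begin with tGCCTGGC and all 4 miR396-5p names. The 2 miR172 sequences that begin with gCAGCATC carry another seed than mtr-miR172b and come from the opposite arm of the hairpin, as the 5p in the name of the longer one says. The 3 miR156 sequences printed are the same stretch shifted by a few bases, so that their seeds overlap without being equal.

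Named sites were read more often than PC- sites. Of the predicted pairings, 27.4% of 1484 named and 12.1% of 3723 PC- pairings had a read. The difference held in every library: 12.3% to 16.8% of the named and 2.47% to 5.88% of the PC- pairings were read in 1 library, a mean difference of 10.0 percentage points that was positive in 7 of 7 libraries. The 7 libraries stand for 7 conditions and share 1 list of sites, so they are not replicates. Among the unique cuts that had any read, named ones were read in 39.6% (ABA8) to 55.8% (CK0) of cases in a single library and PC- ones in 18.7% (NDGA8) to 47.8% (ABA5), a mean difference of 14.0 percentage points, positive in 7 of 7 libraries.

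Reads per cut differed more than detection. Averaged over all cuts of a class, a named cut had 99.3 raw reads in CK0 and a PC- cut 1.43, and in ABA8 the averages were 7.91 and 0.675. The difference averaged 5.58 on the log2 scale, and it was positive in 7 of 7 libraries. Much of it lay in 1 component, comp100446. The averages count the same reads of this component again for each of its 10 isoforms. Without its cuts the mean difference was 3.23, and between medians of the cuts read it was 1.60. With 1 cut per component the mean difference was 4.00. The typical named site was thus weakly read: the median over the 7 libraries together was 3 reads, with quartiles of 1 and 19 and a maximum of 8771, against a median of 2 and a maximum of 199 for PC- cuts. At the threshold itself, 113 cuts (35.2%) were members with a single read in all 7 libraries, and 1077 named pairings lay just outside with 0 reads.

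The alignment score runs from 0 to 4 in this table. By convention a lower score is a closer pairing, but the scoring scheme is not given in the sources used here. Cuts of named miRNAs had a median score of 3.5 (quartiles 3 and 4) and PC- cuts a median of 4, and 15.6% of the named and 10.2% of the PC- cuts scored 2 or less. The share of predicted pairings that were read moved with the score for named miRNAs and stayed level for PC- ones. At scores from 0.5 to 2, 58 of 93 named pairings were read (62.4%, exact Clopper-Pearson 95% interval 51.7 to 72.2, counting error only), against 344 of 1347 at scores of 2.5 to 4 (25.5%, 23.2 to 28.0). For PC- pairings the same counts, with the intervals of their shares, were 43 of 359 (8.81% to 15.8%) and 401 of 3285 (11.1% to 13.4%). Cuts at scores of 0.5 to 2 had a median of 23.5 reads among named miRNAs, and cuts at 2.5 to 4 had a median of 3. Pairings share miRNAs and transcripts, so they are not independent and these intervals are too narrow.

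**Figure D1:**
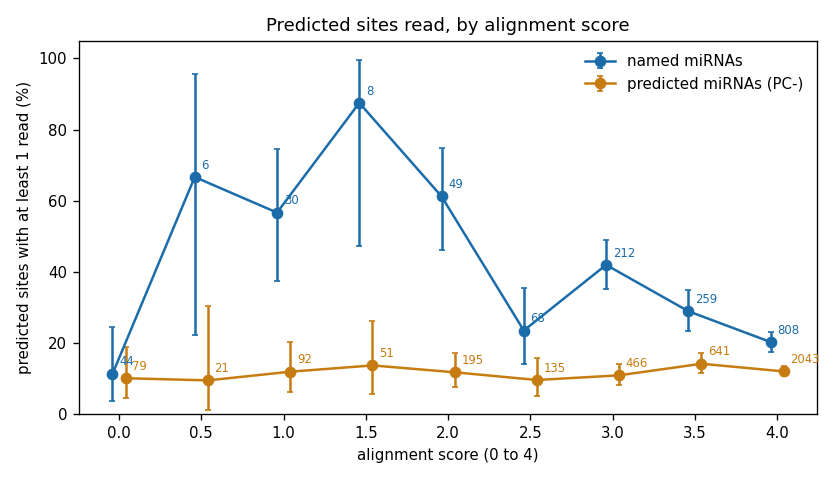
Share of predicted pairings with at least 1 read (%, y axis) at each alignment score (x axis), for named miRNAs (blue) and PC- miRNAs (orange). Bars are exact 95% binomial intervals for counting error only, and the small numbers give the pairings predicted at each score. The blue points lie at 56.7% to 87.5% between scores of 0.5 and 2 and at 11.4% at a score of 0, while the orange points stay between 9.52% and 14.2%.

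Pairings with a score of 0 were an exception among named miRNAs: 5 of 44 were read (11.4%). These 44 lie on 19 components, of which 3 had reads. The read ones were comp112346 with miR482 (183 reads in 7 libraries), comp99189 with mdm-miR7125_1ss1CT (111 reads in 6 libraries) and comp109772 with miR164 (1 read, in CK0), the last of them named after its value was seen. On 8 of the 16 unread components, a unigene paired at a score of 0 with named small RNAs at separate, non-overlapping places. This occurred on none of the 3 read components. The cause was not tested.

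Reads were counted only at the predicted cut, so the position of the cut cannot tell the classes apart. Counted from the 5′ end of the miRNA, 297 of 321 named cuts lay opposite base 10, 18 opposite base 9 and 6 opposite base 11, and PC- cuts held the same 3 positions with 379, 27 and 6 cuts. Each read site also has a category from 0 to 4, defined in no source used here. In the table, category 4 never had more than 1 read and the others never fewer than 2. Category 0 took 25.5% (NDGA5) to 34.8% (NDGA8) of the named cuts read in a library, and 0.943% (NDGA5) to 4.72% (CK5) of the PC- cuts.

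Sites found again in library after library were mostly those of named miRNAs. Of the named cuts 72 (22.4%) had reads in all 7 libraries, against 18 (4.37%) of the PC- cuts, and 131 (40.8%) and 210 (51.0%) were read in 1 library only. Counted by component, 40 of 192 named components (20.8%) and 14 of 266 PC- components (5.26%) had a cut read in all 7. The 40 named components belonged to 16 of the 27 families and held 95.3% of the reads, each library scaled to its total and each component counted by its best cut. Of these 40 best cuts 14 scored 2 or less, 6 scored 4, and 8 had at least 10 reads in every library.

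**Figure D2:**
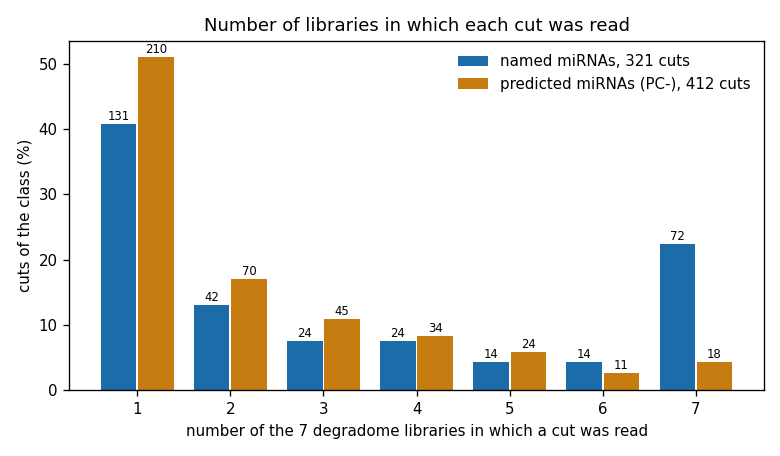
Percentage of the unique cuts of each class (y axis) by the number of degradome libraries in which the cut was read (x axis), for named miRNAs (blue, 321 cuts) and PC- miRNAs (orange, 412 cuts), with the number of cuts above each bar. Both classes are highest at 1 library, and named cuts have a second group of 72 cuts at 7 libraries.

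Few components carried most of the reads. The best cut of comp100446 alone held 38.5% of the reads of named miRNAs summed over libraries in RPM, comp112242 brought this to 62.6%, and the 10 most read components held 84.2%. By family, miR482 held 48.7%, miR393 24.1%, miR160 4.75%, miR172 4.60%, miR2111 3.09% and miR164 3.01%. The 11 families with more than 1% each came to 96.5%, and in 22 of 27 families a single component held over 50% of the family's reads.

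The miR482 family is known for cutting transcripts of NBS-LRR resistance proteins. The most read cut of all lay at position 390 of comp100446_c0_seq11, paired with vvi-miR482_2ss10CT20TC at a score of 4. It had 2515, 1688 and 1278 raw reads in the water libraries (CK0, CK5, CK8), 1007 and 148 with ABA (ABA5, ABA8), and 1587 and 540 with NDGA (NDGA5, NDGA8). The component has 10 isoforms with 8702 to 8771 reads each, cut at position 390 or 468, and these are the same reads counted again. The unigene comp100446_c0_seq11 stood at 7.08 RPKM in CK0 and 1.97 to 3.86 RPKM in the other 6 libraries. This is the level of 1 isoform, whereas the cut reads are shared by all 10. A further miR482 cut, at position 252 of comp91920_c0_seq1 (score 3), had 328, 289 and 225 reads with water, 377 and 74 with ABA, and 410 and 154 with NDGA. Neither unigene carries an annotation in the files. Both cuts had their lowest RPM in ABA8, where comp100446 stood at 6.45 and comp91920 at 3.22.

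The TIR1/AFB receptors, the known targets of miR393, are parts of SCF ubiquitin ligases that bind auxin. Position 2855 of comp112242_c0_seq9 (score 1.5), annotated to an SCF ubiquitin ligase complex and to auxin binding, was cut opposite both miR393 names. Its reads were 2149, 924 and 1111 with water, 622 and 127 with ABA, and 664 and 272 with NDGA. In RPM the 3 CK libraries lay between 47.9 and 52.4, above all 4 treated libraries, which lay between 5.53 (ABA8) and 34.6 (NDGA5). This was the only read cut of the miR393 family.

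Auxin response factors are the known targets of miR160. Both of its leading components are annotated to auxin signalling and DNA binding. The cut at position 1443 of comp117557_c0_seq21 (score 0.5) had 461, 47 and 69 reads with water, 113 and 41 with ABA, and 75 and 61 with NDGA. The cut at position 2126 of comp100456_c1_seq1 (score 1) had 186, 18, 25, 40, 8, 33 and 36 reads in the same order. In RPM CK0 was the highest library for both, at 11.2 and 4.54, and ABA8 the lowest, at 1.79 and 0.349. The miR167 site at position 2641 of comp117822_c0_seq6 (score 4), also annotated to auxin signalling, was read in all 7 libraries with 5 to 18 reads.

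Sites of other families known for transcription factors followed at lower levels. The miR164 cut at position 1164 of comp109189_c0_seq3 (score 0.5, annotated to DNA binding) had 173, 19 and 32 reads with water, 43 and 14 with ABA, and 83 and 26 with NDGA. Among miR172 targets the most read was position 558 of comp109158_c0_seq2 with mtr-miR172b (score 3), which held 131 reads in CK0 and 28 to 66 in the other libraries. In RPM it lay between 1.46 (NDGA5) and 3.20 (CK0). The miR166 cut at position 1226 of comp114529_c0_seq3 (score 3.5), annotated as a sequence-specific DNA-binding transcription factor, had 68 reads in CK0 and 8 to 18 elsewhere. The miR319 cut at position 2184 of comp120317_c0_seq1 (score 3) had 146 reads in CK0 and 6 to 28 elsewhere, and the miR169 cut at position 1238 of comp98831_c0_seq3 (score 2), on a unigene annotated to the CCAAT-binding factor complex, had 4 to 15 reads in each library. CK0, the deepest library, held the most raw reads at all of these sites but that of miR169.

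**Figure D3:**
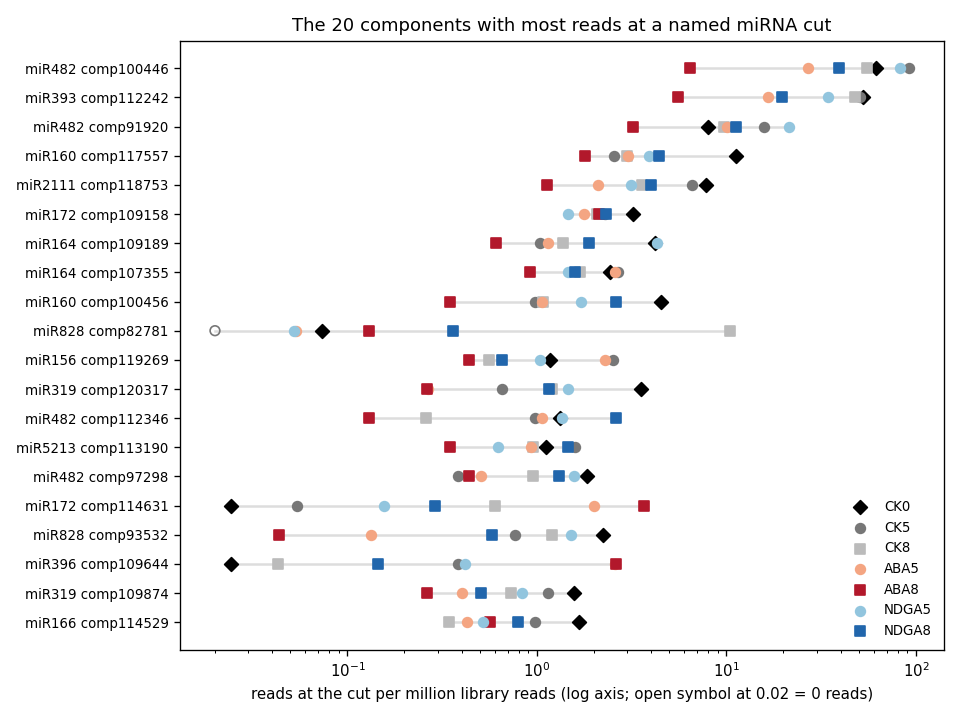
Reads at the best cut, in RPM (x axis, log scale) for the 20 components with most reads at a cut of a named miRNA (y axis, family and component), with 1 symbol per library. An open symbol at 0.02 stands for 0 reads. ABA8 (dark red squares) is the lowest library at comp100446, comp112242 and comp91920, and the highest at comp114631 and comp109644.

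Where isoforms of a miRNA start at different bases, the table holds neighbouring cuts. Of 25 neighbouring pairs of named cuts on a unigene, 20 lay within 3 bases of each other (12 at 1 base, 7 at 2 and 1 at 3), on 8 components, and 13 of the 20 were miR156 pairs. The other 5 were at least 440 bases apart. In comp119269_c0_seq4, position 2957 (gma-miR156a_L+1, score 1) had 48, 46 and 13 reads with water, 85 and 10 with ABA, and 20 and 9 with NDGA. The base before it, 2956 (mtr-miR156b-5p_R+1, score 2), had 29, 14, 11, 33, 9, 9 and 5 reads in the same order, and position 2959 (osa-MIR156j-p5) had 9 reads in all. The base at 2957 had more reads than its neighbour in all 7 libraries. For the same pair of miRNAs the order was the other way on comp106793 (3 reads for gma-miR156a_L+1, 8 for mtr-miR156b-5p_R+1) and on comp116920 (1 and 3 reads).

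The number of targets per miRNA was uneven. A name had a median of 3 target components, 19 names had 1 and 7 had at least 10. The 5 names with most components were lus-miR172j_R-3_1ss12AC (38), mtr-miR396b-5p_R-1 (19), ppe-MIR156b-p3_1ss18CT (13), mtr-miR396a-5p (11) and mtr-miR396b-5p_1ss21GT (11), and the last 2 names have 1 sequence. lus-miR172j_R-3_1ss12AC is 18 bases long and had 0 to 2.5 small RNA reads per library. Of its 38 components 6 were read in all 7 libraries and 7 had at least 10 reads. In contrast, mdm-miR166a was the most abundant of the 64 sequences found in the small RNA table, with 157275 to 575316 reads per library, and had 1 target component. Of the 84 named miRNAs with a predicted pairing, 19 had no read site.

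The deposited annotation covered 108 of the 192 components, mostly by Gene Ontology terms, and a protein name was given for 31 of the 321 cuts. Matching the textbook target words of each family to it gave 6 cuts on 4 components: 3 CCAAT-binding factor components with miR169, and comp96698 with miR397, a laccase with 1 read (CK0). Of the 20 listed families with a cut, these 2 had a match. Terms were also grouped after the annotation had been read, and these groups are a description only. Terms of transcription regulation occurred on 20 of 88 named components with Gene Ontology terms (22.7%) and on 7 of 93 PC- components (7.53%). Some of the named ones had 1 read at the cut (comp103592, comp99877, comp109795, comp114185 and comp79889). Auxin terms occurred on 5 and 2 components. The plant-type hypersensitive response occurred on 6 named components, 5 with miR5213 and 1 with miR482, and on 0 PC- components. The cuts of these 6 had 172, 8, 4, 1, 1 and 1 reads, and that of miR482 was among those with 1 read. The most read of these, position 626 of comp113190_c1_seq15 (miR5213, score 3), had 46, 29 and 22 reads with water, 35 and 8 with ABA, and 12 and 20 with NDGA. miR828 is known in other plants for MYB factors of pigment formation. Its site on comp99877_c2_seq3, annotated to proanthocyanidin biosynthesis, had 1 read, in NDGA5. This site was chosen after its values were seen.

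Summed over the best cut of each component, reads of named miRNAs came to 187, 194 and 152 RPM with water (CK0, CK5, CK8), to 87.5 and 39.8 with ABA and to 175 and 107 with NDGA (days 5 and 8). Both ABA libraries were the lowest. In pooled tissue, fewer cells of a type and less RNA per cell cannot be told apart. ABA8 had 3.83-fold fewer than CK8 and ABA5 2.22-fold fewer than CK5. Without comp100446 and comp112242 these folds were 1.78 and 1.18, and PC- cuts, with 8.32 to 12.6 RPM in all 7 libraries, were 1.38-fold and 1.15-fold lower. NDGA5 had 1.11-fold and NDGA8 1.42-fold fewer than their water controls, and without the same pair of components the NDGA libraries had 1.12 and 0.983 times the control's reads. The number of named cuts read, 127 in ABA8 and 141 in CK8, differed much less than the reads.

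**Figure D4:**
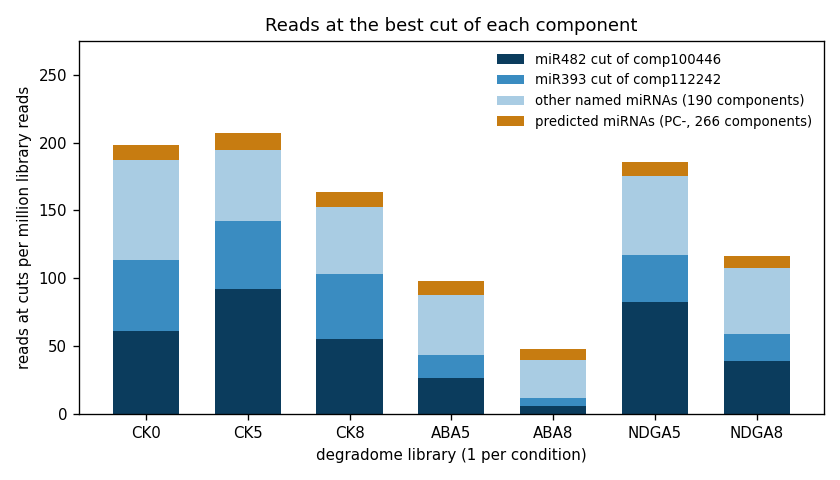
Reads at the best cut of each component, in RPM (y axis) in each of the 7 degradome libraries (x axis), stacked by the miR482 cut of comp100446, the miR393 cut of comp112242, the other 190 components of named miRNAs and the 266 components of PC- miRNAs. The blue parts add up to 39.8 in ABA8 and to 152 in CK8, while the orange part lies between 8.32 and 12.6 throughout.

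For single cuts, a change was called at a 2-fold ratio of the authors' normalized reads (TPB) with at least 10 raw reads in 1 of the libraries compared. The ratios have exact 95% intervals from raw reads that cover counting error only, and a call rests on 1 library a side. On day 8, ABA had 28 lower and 4 higher cuts of 47 that could be called, or 14 and 4 of 25 components. The lower cuts included the isoforms of comp100446, without which 18 were lower and 4 higher of 37. Over both classes of cuts, 57.4% of 54 were lower and 13.0% higher, and 70.4% changed in either direction. The named cuts are 47 of these 54, so the named share lower, 59.6%, had to be near that of all cuts. Of the 7 PC- cuts, 3 were lower and 3 higher. The shares over both classes given below contain the named cuts in the same way. When libraries were scaled to the median ratio of the cuts read in all 7, the split was 9 higher and 17 lower. When they were scaled to the summed reads of the table, which comp100446 dominates, it was 26 higher and 2 lower, so the direction of the set depends on the scale. Counted by component, 10 of the 18 called changed direction with this scaling, comp91920 among them (log2 ratio -1.59 by library total, 0.86 by summed reads). With the median ratio 0 of the 18 changed direction, but several lower components no longer reached 2-fold. These were comp91920, comp118753, comp109189, comp100456, comp113190, comp97298, comp109874 and comp107778, with log2 ratios from -0.88 to -0.34.

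The largest decreases in ABA8 were at miR828 sites. Position 158 of comp82781_c1_seq1 (score 3) had 3, 0 and 241 reads with water, 2 and 3 with ABA, and 1 and 5 with NDGA, so CK8 stood alone. ABA8 was 79.5-fold below CK8 (26.9 to 388), and the unigene fell from 3.27 to 0.921 RPKM. NDGA8 was 28.6-fold below CK8 at this cut (12.1 to 89.0). The other miR828 cut called, position 31 of comp93532_c0_seq2 (score 2), had 28 reads in CK8 and 1 in ABA8, a 27.7-fold difference (4.58 to 1133), and 14 in CK5 against 5 in ABA5, 5.71-fold (1.94 to 20.3). Its unigene differed less, with 3.18 RPKM in CK8 and 2.53 in ABA8. The miRNA assigned to both, gma-miR828a, had at most 6 small RNA reads in any library.

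The 2 most read cuts were both lower with ABA. In undivided RPM, ABA8 lay 8.54-fold below CK8 at comp100446 (7.20 to 10.2), and ABA5 lay 3.42-fold below CK5 (3.16 to 3.70). After division of reads among matching transcripts, as in TPB, the log2 ratios were -3.47 and -1.80. The isoform comp100446_c0_seq11, not the whole component, stood at 1.97 RPKM in CK8 and 1.99 in ABA8. The miR482 sequence stood at 1222 and 1132 normalized small RNA reads. comp112242 was 8.65-fold lower in ABA8 (7.20 to 10.5) and 3.03-fold lower in ABA5 (2.73 to 3.36). Its unigene fell from 22.9 to 11.6 RPKM on day 8, and both miR393 sequences together went from 55.3 to 241 normalized small RNA reads. Scaled to the summed reads of the table, the comp100446 differences were log2 ratios of -0.65 in ABA8 and -0.23 in ABA5. Because comp100446 dominates that sum, its own ratio had to shrink, so this scaling cannot test its change. With the same scaling, which sets a cut largely against comp100446, the comp112242 log2 ratios were -0.66 in ABA8 and -0.06 in ABA5.

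Against this direction, cuts on 4 components were higher in ABA8. Position 1834 of comp109644_c1_seq1 (mtr-miR396a-5p, score 3.5), annotated to ATP binding and response to stress, had 1, 7 and 1 reads with water, 97 and 60 with ABA, and 8 and 2 with NDGA. The ratio was 60.7 on day 8 (10.5 to 2435) and 6.80 on day 5 (3.18 to 17.4). Its unigene was higher as well, going from 43.9 RPKM in CK8 to 1154 in ABA8 and from 45.4 in CK5 to 647 in ABA5. Position 507 of comp114631_c0_seq1 (lus-miR172j_R-3_1ss12AC, score 3), named FK506-binding protein 4/5, a class of protein-folding helpers, had 1, 1, 14, 75, 84, 3 and 4 reads in the same order. It was 6.07-fold higher in ABA8 (3.42 to 11.6) and 36.8-fold higher in ABA5 (6.40 to 1472), with the unigene at 2699 RPKM in ABA8 and 242 in CK8. The assigned lus-miR172j_R-3_1ss12AC had 2.5 small RNA reads in CK5, 0 in ABA5, 0.5 in CK8 and 2.5 in ABA8. The miR396 sequences assigned to the comp109644 cut went different ways with ABA. mtr-miR396a-5p went from 2410 normalized small RNA reads in CK5 to 1345 in ABA5, and from 2927 in CK8 to 1393 in ABA8. The less abundant mtr-miR396b-5p_R-1 went from 355 in CK5 to 440 in ABA5, and from 435 in CK8 to 909 in ABA8. Summed, these sequences had 2765 normalized small RNA reads in CK5 and 1785 in ABA5, and 3362 in CK8 and 2302 in ABA8. Both ABA libraries were above all other libraries for these cuts and for both unigenes. The third was position 159 of comp102679_c0_seq4 (miR827, score 1, annotated to transmembrane transport), with 11 reads in ABA8 and 2 in CK8, 5.56-fold (1.21 to 51.6), and 10 in ABA5 against 2 in CK5 (2.45-fold, 0.523 to 23.0). miR827 is known for SPX-domain proteins of phosphate balance. The fourth was the miR156 cut of comp119743_c0_seq1, with 12 reads in ABA8 and 6 in CK8, 2.02-fold with an interval that includes 1 (0.702 to 6.57).

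**Figure D5:**
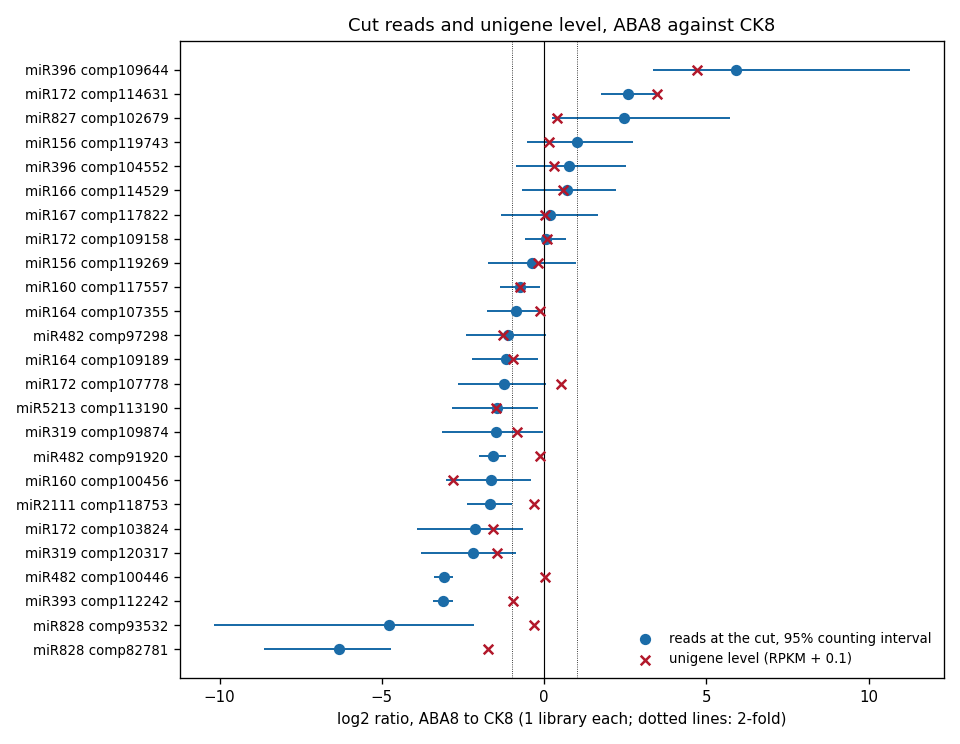
Log2 ratio of ABA8 to CK8 (x axis) for the 25 components with at least 10 reads at the cut in 1 of both libraries (y axis, family and component). Blue points are undivided RPM at the cut with 95% counting intervals, red crosses the level of the unigene (RPKM + 0.1), and dotted lines mark 2-fold. The points of comp100446 and comp112242 lie near 8.5-fold lower while their crosses lie at or within 2-fold of no change, and the points of comp109644 and comp114631 lie at the right with their crosses.

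Across the 14 components lower in ABA8, 6 also had a unigene at least 2-fold lower in RPKM and none had one at least 2-fold higher, and the interval of 12 excluded 1. The assigned miRNA had enough small RNA reads for a ratio in 10 of them: it was at least 2-fold lower in 3 and at least 2-fold higher in 1. Of the 4 higher components, 2 had a unigene at least 2-fold higher, and the interval of 3 excluded 1. The part of the transcript level in the cut reads was not tested.

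On day 5, ABA had 10 higher and 19 lower of 61 cuts, or 6 and 8 of 34 components. Over both classes 14.3% of 70 cuts were higher and 30.0% lower (44.3% either way). The lower count included the 10 isoforms of comp100446, without which the split was 10 and 9. Scaled to the median ratio it was 20 higher and 8 lower, and scaled to the summed reads 39 and 0, with 3 of the 14 components called changing direction. Besides the cuts named above, position 1149 of comp119678_c0_seq2 (lus-miR172j_R-3_1ss12AC, score 4) was 3.67-fold lower in ABA5 (1.61 to 8.90), with 10 reads against 18. The ABA and NDGA comparisons share their CK libraries.

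With NDGA the calls were fewer. On day 5, 12 cuts were higher and 5 lower of 48, or 6 and 3 of 24 components, against 22.2% higher and 13.0% lower of 54 cuts over both classes (35.2% either way). The largest increases were at ppe-MIR156b-p3_1ss18CT on comp119743_c0_seq1 (13 reads against 2, 6.21-fold, 1.40 to 56.6), at miR164 on comp109189 (83 against 19, 4.17-fold, 2.51 to 7.27) and at miR482 on comp97298_c0_seq6 (30 against 7, 4.09-fold, with a lower limit of 1.76). The largest decreases were smaller: miR5213 on comp113190 was 2.53-fold lower (1.25 to 5.45), miR156 on comp119269 2.41-fold (1.40 to 4.30) and miR2111 on comp118753_c0_seq11 2.11-fold (1.54 to 2.93). In none of the 9 components called did the unigene change 2-fold in RPKM.

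On day 8, NDGA had 8 higher and 8 lower of 45 cuts, or 4 and 6 of 22 components, against 16.3% and 20.4% of 49 cuts over both classes (36.7% either way), and 12 higher and 2 lower when scaled to the summed reads. The highest ratio was at miR482 on comp112346_c0_seq1 (score 0), with 36 reads in NDGA8 and 6 in CK8, 10.1-fold (4.21 to 29.3), on a unigene at 0.185 and 0.191 RPKM. miR3627 on comp117349_c0_seq12, annotated as a calcium-transporting ATPase of the plasma membrane, was 5.05-fold higher (1.53 to 21.5) and miR160 on comp100456 2.42-fold (1.41 to 4.21). The miR393 cut of comp112242 was 2.43-fold lower (2.12 to 2.78) on a unigene at 23.0 and 22.9 RPKM. Scaled to the summed reads, the log2 ratio of this cut was -0.80, which is less than 2-fold. After comp82781, the largest decreases were on comp107778_c0_seq1 (2.82-fold) and comp103824_c0_seq13 (2.61-fold), both with lus-miR172j_R-3_1ss12AC and with intervals that include 1 (0.938 to 11.4 and 0.966 to 8.84).

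Between water libraries, more cuts were called lower than higher on the later days, although the summed reads of CK5 (194 RPM) were not below those of CK0 (187 RPM). In CK5 against CK0, 3 cuts were higher and 26 lower of 68, or 2 and 18 of 39 components, against 6.58% higher and 38.2% lower of 76 cuts over both classes (44.7% either way). In CK8 against CK0, 5 were higher and 32 lower of 73, or 3 and 22 of 42 components, against 7.50% and 42.5% of 80 cuts (50.0% either way). The named shares lower were 38.2% and 43.8%. They had to be near those over both classes, because 68 of the 76 and 73 of the 80 cuts are named. Of the PC- cuts, 3 of 8 were lower and 2 higher in CK5, and 2 of 7 lower and 1 higher in CK8. Of the lower components, 9 of 18 on day 5 and 8 of 22 on day 8 had a unigene at least 2-fold lower as well. Calls against 0 reads count among these. With the empty library set at 3 reads, in undivided RPM, comp119622 was 1.94-fold and comp117733 2.09-fold lower in CK5. The smallest such difference in CK8 was 2.64-fold, at comp117733. CK0 had the highest RPM in 17 of the 40 components read in all 7 libraries, and ABA8 the lowest in 20.

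The largest decreases over time were at mtr-miR396b-5p_R-1 on comp106394_c0_seq4, with 39 reads in CK0, 3 in CK5 and 1 in CK8 (5.82-fold, 1.85 to 29.4, and 22.1-fold, 3.74 to 894), and at miR482 on comp81114_c0_seq1, with 26 reads in CK0 and 1 in CK5 (11.6-fold, 1.91 to 477). mdm-miR7125_1ss1CT on comp99189_c0_seq3 had 48 reads in CK0 and 0 in CK8. This was 9.06-fold lower with 0 set to a floor of 3 reads, and the lower limit of the interval was 7.08. Its unigene, annotated as a zinc transporter, stood at 5.69 and 7.38 RPKM. ptc-miR169i_R-1 on comp97705_c0_seq11 had 14 reads in CK0 and 1 in both later libraries (6.27-fold, 0.953 to 265, and 7.92-fold, 1.21 to 335). The largest increases from CK0 to CK8 were at comp82781 (142-fold, 48.0 to 693), comp114631 (24.7-fold, 3.76 to 1046) and comp103824 (19.4-fold, 4.78 to 171), and all 3 unigenes were at least 2-fold higher in RPKM. From CK0 to CK5 the increases were at comp119678 (3.35-fold, 1.53 to 7.63) and comp119269 (2.14-fold, 1.40 to 3.28).

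Other families had weak sites. The best cut of miR390 (comp102041_c0_seq2) had 8 reads, of miR162 (comp119659_c0_seq17) 15, of miR399 (comp119622_c0_seq1) 18, of miR530 (comp113757_c1_seq2) 18, of miR397 (comp115486_c0_seq10) 6 and of miR171 (comp116038_c0_seq4) 4 reads over all 7 libraries. None of these was read in every library. miR162 is known to cut Dicer-like 1, the enzyme that makes miRNAs, and miR390 to cut TAS3 transcripts. The miR171 site, of the 5p arm, fell on a unigene named molecular chaperone DnaK.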

How the data were processed

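Small RNA, transcript and degradome libraries were made from the same 7 conditions. Mapping and cut-calling tools of the degradome were not given in the sources used here. For transcripts the authors assembled reads with Trinity and TGICL. Per site, the authors deposited a raw count of degradome reads, that count divided by 1 to 10 matching transcripts, the divided count scaled to library size (TPB, a score), a category score and an alignment score. The deposited RPKM is per unigene. Small RNA values deposited by the authors are an estimated count, split among loci, and a normalized score. Columns of the authors' p-values were not used.

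Library totals were recovered from TPB, which is 1 constant per library times the divided count. Conditions follow the sample labels, which the deposited design text contradicts for ABA8 and NDGA5. The planned normalized reads were taken as TPB, because the divided count is not scaled to depth. The members, the target words and the tests were chosen with earlier results of these data known. Class differences, planned with an exact sign-flip test over libraries, are given without a p-value, because reads chose the cuts. Intervals are exact (Clopper-Pearson, 95%). RPKM ratios used a pseudocount of 0.1 RPKM. Named cuts are the 10 with most TPB, the best of each listed family, and the 3 largest called changes per direction, counting 1 cut per component. Reads are not molecules counted once, so intervals cover counting error only. Scripts were tested on simulated data. Alternatives were read minimums, score limits, scaling, left-out libraries and counting by component. Python 3.11.15, pandas 2.3.3, numpy 2.4.6, scipy 1.17.1 and matplotlib 3.10.9 were used. mdm-miR160a_R+1 had no small RNA value analysed here.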

Additional observations from a re-analysis of the deposited data

Results flagged for a closer look

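At position 1075 of comp107778_c0_seq1 (lus-miR172j_R-3_1ss12AC, score 2.5) the ABA libraries lay on opposite sides of their water controls when scaled to library totals. The log2 ratio of ABA to CK was 1.09 on day 5 (26 reads in ABA5, 6 in CK5) and -1.23 on day 8 (8 reads in ABA8, 19 in CK8). The 95% counting interval of the ratio was 0.856 to 6.31 on day 5 and 0.161 to 1.02 on day 8, so each includes 1. With the median-ratio scaling the day 8 value was -0.45, and with scaling to the summed reads of the table it was 1.22, on the same side as day 5. The difference between the days was not tested, since each condition has 1 library.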

How the results depend on the processing

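No paired analysis was possible because each condition has 1 library per assay. Both class differences kept their direction under every alternative run. The share of cuts read differed by 13.7 to 29.0 percentage points, and by 12.4 to 15.1 when each library was left out in turn. With all predicted pairings as the denominator the difference was 10.0. The log2 ratio of mean reads per cut was 3.23 to 5.04, and 5.40 to 5.91 without each library. Between medians of the cuts read it was 1.60. The set shrank with a read minimum: 103 unique cuts had 5 or more raw reads in a library and 80 had 10 or more. Of the latter, 33.8% scored 2 or less. Cuts in all 7 libraries numbered 37 at 5 or more reads in each, and 119 when every line was counted. Names with a cut fell to 41 at scores up to 3 and to 38 at 10 reads, lus-miR172j_R-3_1ss12AC kept 9 and 6 components, and components with matching annotation fell to 2 at 10 reads. Called cuts changed by over 1.5 times in these cases: for ABA5 with CK5, 29 became 18 at 20 reads, 17 with reads summed per component and 19 without comp100446; for ABA8 with CK8, 32 became 21 with summed reads; for NDGA5 with CK5, 17 became 30 at 1.5-fold and 10 at 20 reads; for NDGA8 with CK8, 16 became 28 at 1.5-fold and 9 at 20 reads; for CK5 with CK0, 29 became 44 at 5 reads. The median log2 ratio of the 90 cuts read in all 7 libraries, taken off in the median scaling, was -0.77 for ABA5 with CK5, -0.78 for ABA8 with CK8, -0.60 for CK8 with CK0, -0.11 for CK5 with CK0 and 0.19 for NDGA8 with CK8. By component, scaling to the summed reads turned the direction of 10 of 18 called changes for ABA8 with CK8 and of 3 of 14 for ABA5 with CK5, and of none called in the other 4 comparisons. The median scaling turned none of the called changes in the 6 comparisons, but several of those for ABA8 with CK8 no longer reached 2-fold. The settings with 1 cut per component, with all predicted sites as the denominator, without comp100446 and with undivided reads were chosen after seeing the data.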
